A study of Oryza sativa Japonica Group with 4 samples.

Results

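RR6 and CKX4 are rice genes at opposite ends of the cytokinin response: RR6 encodes a type-A response regulator, a protein that is switched on by the hormone and then dampens its signal, and CKX4 encodes a cytokinin oxidase, an enzyme that breaks the hormone down. Both were chosen by their intensities in roots with glutamine against roots without nitrogen, the comparison described here, so those values are given as a description and carry no test. The array annotation and a RefSeq gene table gave each of them 1 probe set, 2 of 22436 probe sets (2 of 17905 genes) that could be assigned to a single gene. RR6 is RefSeq locus LOC4337372, also named OsRRA6, and CKX4 is RefSeq locus LOC4326515. Neither probe set carries the suffixes that mark probes shared between transcripts.

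Roots of Oryza sativa ssp. japonica cultivar TNG67 were measured with Affymetrix's rice GeneChip, an array that reports 1 intensity per probe set. Seeds germinated for 3 days in darkness, and seedlings then stood for 2 weeks in hydroponic solution lacking NH4NO3, so every sample came from nitrogen-starved plants 17 days old. For the last 30 min one group was moved to fresh nitrogen-free solution (minus N, 2 arrays) and the other to a solution that held 2.5 mM glutamine (plus glutamine, 2 arrays). The arrays of each group are biological repeats numbered 1 and 2. The labels do not say how many plants went into each RNA sample. The transfer itself was shared by both groups, and none of the 4 samples was taken before it.

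Cytokinins are adenine-derived hormones made from adenine nucleotides by isopentenyltransferases and released in active form by LOG enzymes. Membrane histidine kinases bind them and pass a phosphate through phosphotransfer proteins to type-B response regulators, which are transcription factors. Type-A response regulators are among the genes these factors switch on within minutes. They lack the DNA-binding part and hold the pathway back, and in rice an excess of RR6 is known to lower cytokinin responsiveness. Several cytokinin oxidase genes are induced by the hormone as well, and in rice an excess of CKX4 is known to increase crown roots. In many plants nitrogen supply raises cytokinin levels in roots, and type-A regulators are used as a readout of that.

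RR6 was brighter on both arrays of glutamine-treated roots than on both arrays of untreated roots. Its intensity was 258.2 and 185.5 in minus N replicates 1 and 2, and 657.2 and 581.9 in plus glutamine replicates 1 and 2. The groups therefore did not overlap, and the dimmest glutamine array lay 1.17 log2 units above the brightest minus N array. On the log2 scale the group means were 7.77 ± 0.34 (SD, n = 2) in minus N and 9.27 ± 0.12 (SD, n = 2) in plus glutamine. They differed by 1.499 (SE 0.26), which is 2.83-fold. In bulk root RNA, more cells with the transcript and more transcript per cell cannot be told apart.

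**Figure D1:**
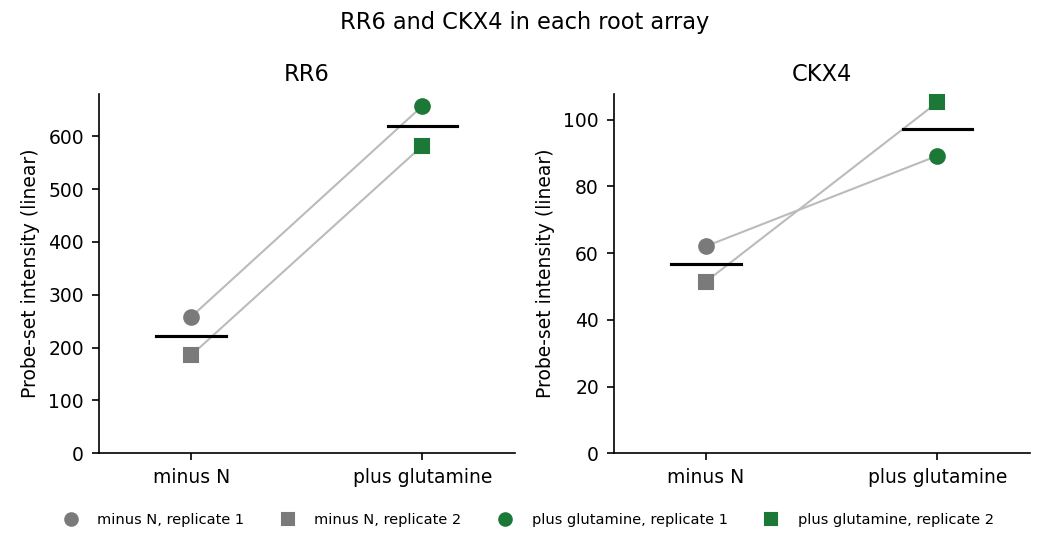
Probe-set intensity on a linear axis for RR6 (left) and CKX4 (right) on each of the 4 root arrays, with the group mean as a black bar and grey lines joining arrays that carry the same replicate number. For RR6 the glutamine arrays sit at 581.9 and 657.2, above 185.5 and 258.2 without nitrogen, and for CKX4 at 89.2 and 105.2, above 51.5 and 62.1.

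The contrast was of similar size within both replicate numbers. RR6 was 2.55-fold higher with glutamine in the arrays numbered 1 and 3.14-fold higher in those numbered 2, which are log2 differences of 1.35 and 1.65. In both groups the array numbered 2 was the dimmer one for RR6, by -0.48 in minus N and -0.18 in plus glutamine on the log2 scale. RR6 was already among the brighter probe sets in starved roots, with 85.1% and 79.7% of all non-control probe sets below it in minus N replicates 1 and 2, and 93.3% and 91.6% below it in the glutamine arrays.

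CKX4 showed a smaller difference in the same direction at a much lower intensity. Its intensity was 62.1 and 51.5 in minus N replicates 1 and 2, and 89.2 and 105.2 in plus glutamine replicates 1 and 2. Here too both glutamine arrays were above both minus N arrays, with a gap of 0.52 log2 units. On the log2 scale the group means were 5.82 ± 0.19 (SD, n = 2) in minus N and 6.60 ± 0.17 (SD, n = 2) in plus glutamine. They differed by 0.78 (SE 0.23), which is 1.71-fold.

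CKX4 differed more between the replicate numbers than RR6 in proportion to its size. It was 1.44-fold higher with glutamine in the arrays numbered 1 and 2.04-fold higher in those numbered 2, which are log2 differences of 0.52 and 1.03. The array numbered 2 was the dimmer of the minus N pair, at -0.27 against number 1 on the log2 scale, and the brighter of the glutamine pair, at 0.24. CKX4 stood 2.37 to 3.12 times the array median in minus N and 4.53 to 4.74 times in plus glutamine, against 8.55 to 12.97 and 26.2 to 33.4 times for RR6. These multiples place each probe set within its array and are not amounts of transcript.

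The comparison of the groups asks which root transcripts differ after 30 min of glutamine. Over all 57258 non-control probe sets, limma called 0% higher and 0% lower at a Benjamini-Hochberg adjusted p under 0.05. At an unadjusted p under 0.05 it gave 453 higher and 52 lower, and 24 probe sets were called, all of them higher, in a fit that added the replicate number as a block and a trended and robust prior. Both glutamine arrays lay above both minus N arrays for 8.36% of probe sets and below them for 8.22%. When the group means also had to be 2-fold apart or more, these shares were 0.393% and 0.0332%. RR6 belongs to that 0.393%, and CKX4, at 1.71-fold, meets the first condition but not the second. Because this contrast chose both genes, nothing is read from these shares for them.

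Set against the rest of the array, the log2 difference of RR6 took place 74 from the top among 57258, and that of CKX4 place 517. Within the arrays numbered 1 RR6 took place 43 and CKX4 place 1424, and within those numbered 2 they took places 208 and 606. Among the 3945 probe sets with a mean log2 intensity within 0.5 of RR6, 15, itself included, differed as much in the same direction. The same count for CKX4 was 104 of 5137. Both genes were chosen from this contrast, so these places and counts describe them and are not evidence of a response. The pooled SD between repeats was 0.25 on the log2 scale for RR6, where the median probe set of like brightness had 0.24, and 0.18 for CKX4, where the median was 0.26.

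**Figure D2:**
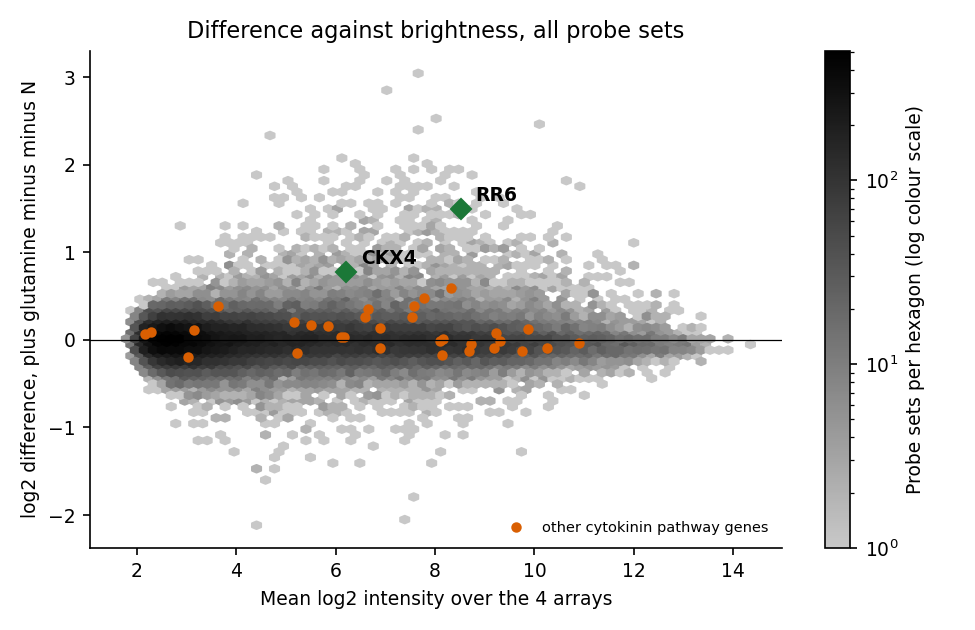
Each hexagon counts probe sets by mean log2 intensity over the 4 arrays (x axis) and log2 difference of plus glutamine minus minus N (y axis), with RR6 and CKX4 as green diamonds and the other 31 measured cytokinin pathway genes as orange points. RR6 lies at 1.499 and CKX4 at 0.78, and the orange points range from -0.19 to 0.60.

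Some control values differed between the arrays. The ratio of 3′ to 5′ signal of the Gapdh control, a sign of RNA integrity, was 6.94 and 6.20 in the arrays numbered 1 of the minus N and plus glutamine groups and 4.32 and 4.43 in those numbered 2. The 24 control probe sets for the dap, lys, phe and thr transcripts, which the standard protocol spikes into RNA before labelling, had a geometric mean intensity of 169 in plus glutamine replicate 2 and 85.2 to 106 in the other arrays. CKX4 was brightest on plus glutamine replicate 2, whereas RR6 was brightest on plus glutamine replicate 1. Without plus glutamine replicate 2 the log2 difference was 1.59 for RR6 and 0.66 for CKX4. The silicon transporter gene Lsi1, a root marker, had intensities from 7279 to 8999 over the 4 arrays. The light-harvesting gene CAB2R, a marker of green tissue, was also bright, at 8606 and 10546 in minus N and 10034 and 9995 in plus glutamine replicates 1 and 2. The summed intensity of all 4 matched green markers was 8943 to 11716 in minus N and 10715 to 10954 in plus glutamine, and that of 15 root markers 18172 to 24033 and 19450 to 23502. For the 8 seed storage markers it was 340 to 349 and 330 to 396. CAB2R made up most of the green sum, and Lsi1 and TIP1-1 most of the root sum. Of the other green markers, OsrbcS stood at 300.2 and 1031.7 in minus N and 635.6 and 874.8 in plus glutamine. FBP1 stood at 33.3 and 134.4 and then 41.8 and 79.4, and RBCS1 between 4.0 and 4.3. Lsi1 was more even than some root markers, such as IRT1, at 185.2 and 423.5 in minus N and 234.2 and 337.6 in plus glutamine. None of the 3 marker sums separated the groups, and their part in the values of RR6 and CKX4 was not tested.

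RR6 is 1 of 6 type-A response regulators with a probe set of their own, out of 10 named in the gene table. Of the other 5, RR9 and RR4 were likewise higher on both glutamine arrays than on either minus N array, and none was lower on both, against 8.36% above and 8.22% below over all probe sets. Their median log2 difference was 0.04, where the median over all probe sets was -0.01.

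RR9 had intensities of 164.8 and 169.0 without nitrogen and 193.4 and 245.7 with glutamine, which differ by 0.39 on the log2 scale (SE 0.23). Within numbers 1 and 2 the difference was 0.23 and 0.54. RR9 and RR10 are known as near-identical copies, and RR10 has no probe set of its own here, so this signal cannot be assigned to RR9 alone. RR4 had intensities of 80.0 and 99.4 without nitrogen and 121.5 and 107.4 with glutamine, which differ by 0.36 on the log2 scale (SE 0.23). Within numbers 1 and 2 the difference was 0.60 and 0.11. Its probe set has a suffix that marks probes shared between transcripts. The folds were 1.31 for RR9 and 1.28 for RR4, and neither gene passed limma's test over all probe sets.

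The remaining 3 type-A regulators overlapped between groups. RR2 stood at 61.7 and 75.1 without nitrogen and 69.2 and 70.6 with glutamine. RR1 stood at 39.7 and 38.9 without nitrogen and 44.7 and 27.9 with glutamine, so its direction turned between the replicate numbers. RR5 was dim everywhere, from 6.9 to 9.2, below the array medians of 19.7 to 22.2. RR6 was the brightest type-A probe set on every array, although probe sets differ in how well they hybridise and such an order is not one of transcript amounts.

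**Figure D3:**
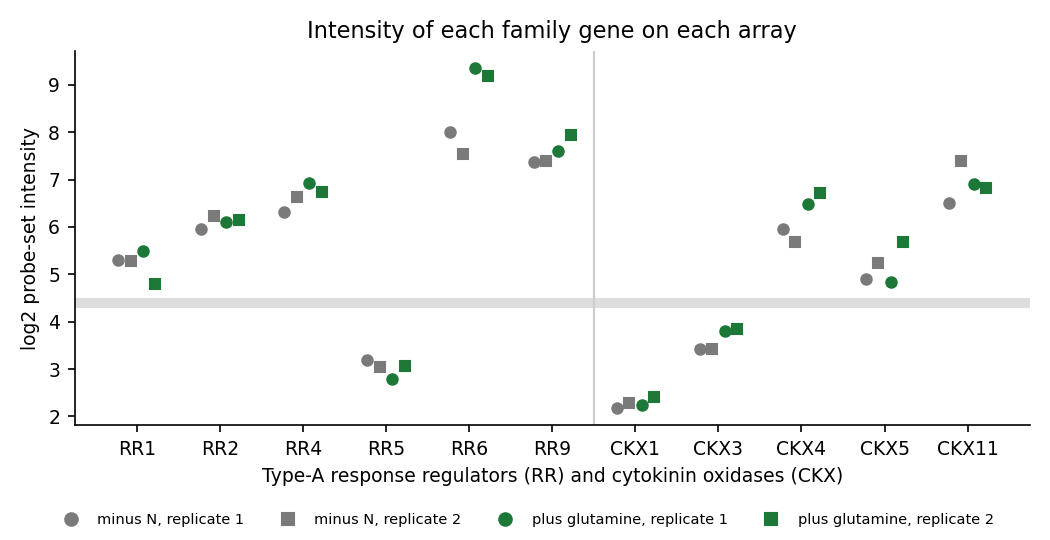
Log2 probe-set intensity of the 6 measured type-A response regulators (left) and 5 cytokinin oxidases (right) on each array, in grey for minus N and green for plus glutamine, with circles for replicate 1 and squares for replicate 2. The grey band marks the array medians, and RR6 is the gene whose green points, at 9.36 and 9.18, stand farthest above its grey points, at 8.01 and 7.54.

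CKX4 is 1 of 5 cytokinin oxidase genes measured, out of 7 in the gene table. Of the other 4, 1 (CKX3) was higher on both glutamine arrays and 0 were lower on both, where 8.36% of all probe sets were higher and 8.22% lower in this way. The median log2 difference of these 4 was 0.15, against -0.01 over all probe sets. CKX3 stood at 10.8 and 10.7 without nitrogen and 13.9 and 14.3 with glutamine, a log2 difference of 0.39 (SE 0.20). All 4 values are below the array medians, and without detection calls it is not known whether this probe set is above background. CKX5 stood at 29.8 and 37.6 without nitrogen and 28.7 and 51.7 with glutamine, with differences of -0.05 and 0.46 within numbers 1 and 2.

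The direction of CKX11 turned between the replicate numbers, and CKX1 was dim everywhere. The brighter of 2 probe sets of CKX11 stood at 90.6 and 166.9 without nitrogen and 119.2 and 112.4 with glutamine, so its difference was 0.40 within number 1 and -0.57 within number 2. Its other probe set lay between 9.7 and 12.2. CKX1 lay between 4.5 and 5.3 on all arrays, with differences of 0.06 and 0.11 within numbers 1 and 2 and overlap between the groups. CKX4 was therefore the only measured oxidase with all 4 values above the array medians and no overlap between the groups.

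Upstream of RR6 and CKX4, the receptors, phosphotransfer proteins and type-B regulators all overlapped between the groups, as did most probe sets on the array, with 8.36% higher and 8.22% lower without overlap. The 5 type-B response regulators, which are the transcription factors of the pathway, overlapped with log2 differences from -0.13 to 0.12. The brightest, RR21, stood at 1068.3 and 1501.2 without nitrogen and 1043.8 and 1361.2 with glutamine. RR33, the dimmest, is counted here by its number and is also named OsRRA19. The 4 measured receptor genes had differences from -0.17 to 0.26 (the latter HK4, SE 0.44), and the brightest by mean log2 intensity was HK3, at 527.8 and 764.9 without nitrogen and 537.8 and 740.2 with glutamine. The -0.17 came from an HK5 probe set whose suffix marks shared probes, and another probe set of HK5 gave 0.17, also with overlap. The 3 phosphotransfer genes had differences from -0.03 to 0.13, led in brightness by AHP2, at 2061.4 and 1825.8 without nitrogen and 1860.2 and 1937.4 with glutamine.

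Among the 8 genes matched to cytokinin synthesis, all of the LOG family that frees active cytokinin, 1 (LOGL7) was higher without overlap and 0 were lower. This is 12.5%, near the 8.36% of all probe sets that were higher. LOGL7 stood at 166.8 and 174.1 without nitrogen and 202.3 and 205.5 with glutamine, a log2 difference of 0.26 (SE 0.20). Another probe set of LOGL7 was dimmer and gave -0.11, with overlap. LOGL9 had the highest difference of means in the group, 0.60 (SE 0.62), with -0.13 within number 1 and 1.33 within number 2. It stood at 495.2 and 135.9 without nitrogen and 451.2 and 340.8 with glutamine, so minus N replicate 2 was far below the other arrays. LOG itself stood at 440.2 and 422.9 without nitrogen and 385.2 and 454.4 with glutamine. Isopentenyltransferase, CYP735A and zeatin glucosyltransferase genes had no match by name and were not analysed here.

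Over all 33 measured genes of the cytokinin lists, RR6 and CKX4 included, 7 had both glutamine arrays higher and 0 had both lower. Without RR6 and CKX4, 5 of 31 (16.1%) were higher and 0 lower, against 8.36% higher and 8.22% lower over all probe sets. The median log2 difference of the 31 was 0.06. The 5 were RR4, RR9, CKX3, LOGL7 and the type-C regulator RR41, whose 4 values lay between 4.3 and 4.6. Of the 31, 0 passed limma's test adjusted over all probe sets, 0 had an unadjusted p under 0.05, and the lowest unadjusted p from limma was 0.11. Under 4 of 12 alternatives 1 or 2 of these genes had an unadjusted p under 0.05 in limma: CKX3 (0.037) and LOGL5 (0.034) with the replicate block, LOGL5 and RR9 with the block and a robust, trended prior, CKX3 (0.0014) and LOGL7 (0.0081) with a floor at the 20th percentile, and LOGL9 without minus N replicate 1. Under these alternatives, too, 0 passed when adjusted over all probe sets. The 4 pseudo-response regulators, relatives that act in the circadian clock and outside this relay, had differences from -0.24 to 0.08.

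**Figure D4:**
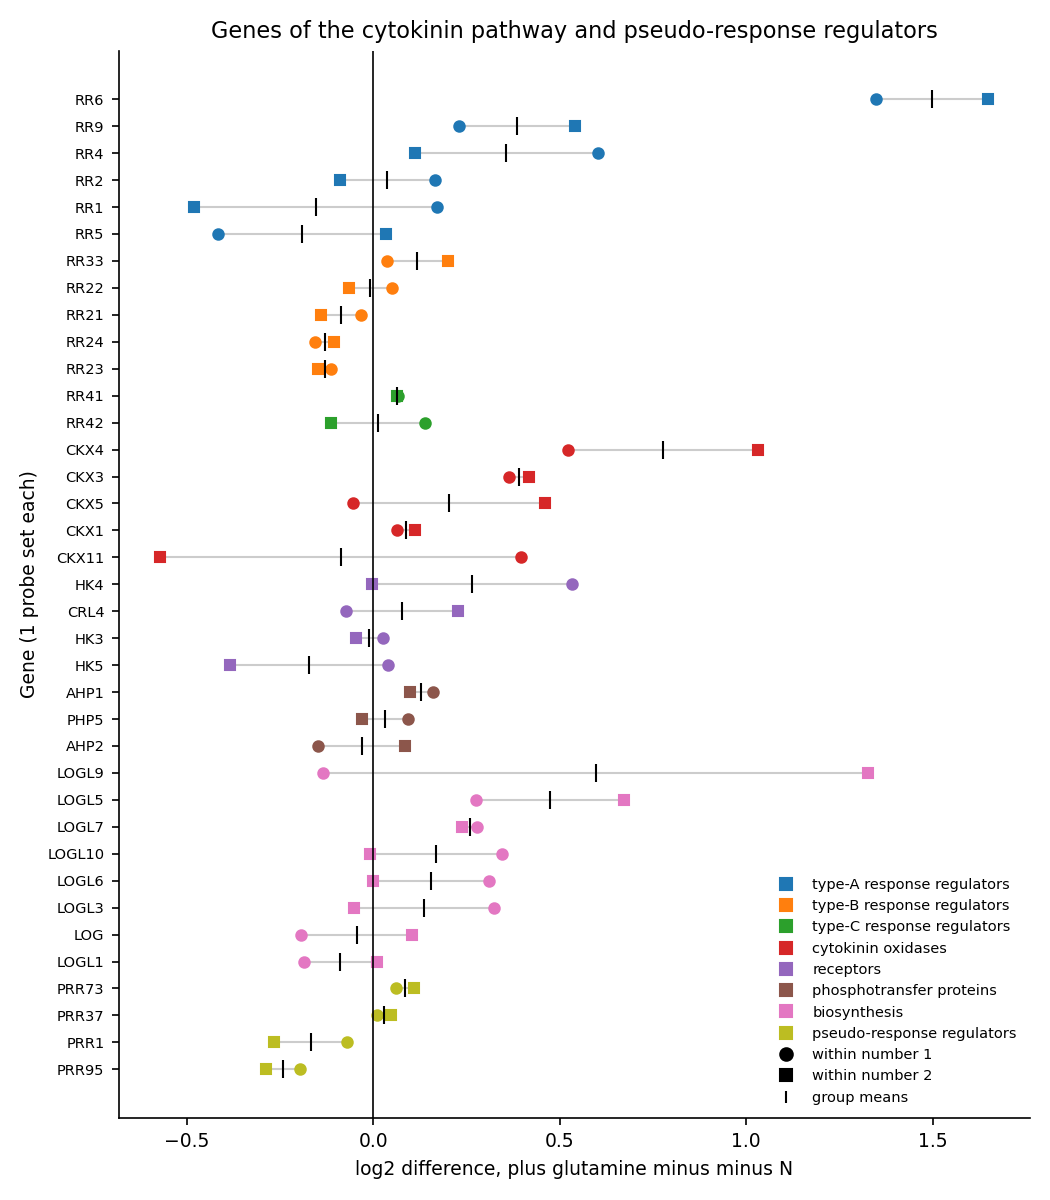
Log2 difference of plus glutamine minus minus N for each measured gene of the cytokinin lists and the pseudo-response regulators, within replicate number 1 (circles), within number 2 (squares) and between group means (black ticks). RR6 lies at 1.35 and 1.65 and CKX4 at 0.52 and 1.03, and most other genes lie on both sides of 0 or within 0.5 of it.

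The profiles of RR6 and CKX4 over the 4 arrays were compared with those of 1972 other named genes with a mean log2 intensity of at least 5, by the root mean square difference of log2 values centred on each gene's own mean. Nearest to RR6 were JAZ13, a repressor of jasmonate signalling, at 0.19, CIPK14, a protein kinase that works with calcineurin B-like proteins, at 0.20, the elicitor-responsive gene ERG1 at 0.21, the transcription factor gene BHLH148 at 0.22, and the chitinase gene Chib3H-h at 0.23. JAZ13 stood at 325.2 and 180.8 without nitrogen and 631.2 and 517.4 with glutamine. The array numbered 2 was the dimmer one in both groups for JAZ13 and Chib3H-h, as for RR6, but not for CIPK14 in minus N or for ERG1 and BHLH148 in plus glutamine.

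The genes nearest to CKX4 lay closer. They were the chitinase gene Cht2 at 0.03, the MYB factor gene LTR1, also named OsMyb4, at 0.05, GH3-8, which encodes an enzyme that conjugates auxin, at 0.06, the protein phosphatase gene OsPP2C32 at 0.10 and OsSK2 at 0.10. Cht2 stood at 255.7 and 202.6 without nitrogen and 351.6 and 435.2 with glutamine, and GH3-8 at 388.6 and 302.5 and then 578.7 and 618.4. On each of these 5 genes, as on CKX4, the array numbered 2 was the dimmer of the minus N pair and the brighter of the glutamine pair. RR6 and CKX4 were 0.40 apart, with CKX4 in place 28 of the genes nearest to RR6 and RR6 in place 432 of those nearest to CKX4. These distances rest on 4 arrays and say nothing of shared control. They are not scaled by the size of the difference, and fewer probe sets differ as much as RR6 (place 74) than as much as CKX4 (place 517). The smaller distances around CKX4 and the places 28 and 432 are therefore not read as a tighter likeness.

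**Figure D5:**
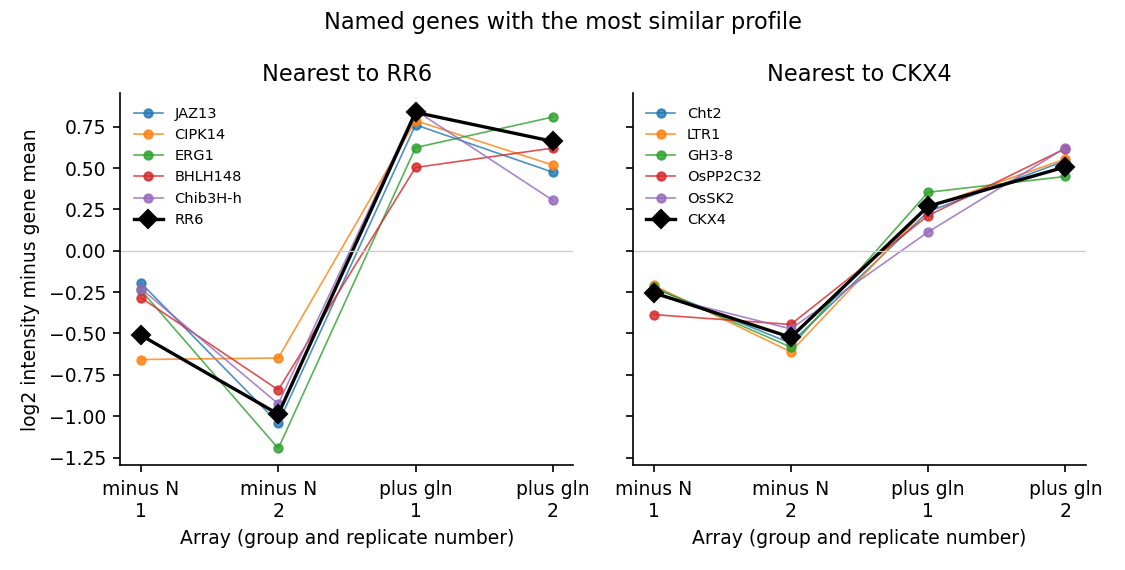
Log2 intensity minus the gene's own mean over the 4 arrays (y axis) on each array (x axis) for RR6 (left, black) and CKX4 (right, black) and the 5 named genes nearest to each (colours), where lines join the values of 1 gene. RR6 and its neighbours are spread by up to 0.23 in root mean square difference, and CKX4 and its neighbours by up to 0.10.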

How the data were processed

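The authors deposited linear intensities, 1 value for each probe set on each of 4 arrays. Per the submitters' processing notes GCOS and RMA were used, with no version or role stated, so summarisation and scaling are unknown. No value was under 1, log2 was taken as it stood, and 123 control probe sets were omitted. Genes were named through the platform annotation and a RefSeq table (assembly ASM3414082v1), which matched all 22436 probe sets with 1 gene; 95 have several and 34727 none. For genes other than RR6 and CKX4, the probe set with the highest mean stands for the gene. Groups were compared with limma 3.58.1 in R 4.3.3 (lmFit, eBayes, group as the single term, two-sided, Benjamini-Hochberg over 57258 probe sets), which gave the SEs. On simulated arrays for plus glutamine against minus N (57258 probe sets), limma called 67 of 67 probe sets changed 2-fold at an SD of 0.1, and 0 of 66 changed 8-fold at the spread of these arrays. The second setting drew arrays independently, with each probe set's own SD from 2 arrays a group, and used the main fit only. Same-numbered arrays here deviated together (correlation 0.67). The simulation therefore cannot give the power of limma on these arrays, and a lack of calls is not read as a lack of change. The members, gene lists and tests were chosen with earlier results of these data known. Named were both members, the type-A and oxidase families, list genes without overlap or else the brightest, and the 5 named genes most alike to each member. LOGL1, LOGL5, LOGL9, HK4, HK5 and RR33 were named after their values were seen, and HCT3, which shares the name PHT1 with phosphate transporters, was then taken out of the root markers. A planned comparison of protein and promoter sequences was not run. Alternatives covered the replicate number, variance prior, each array left out, centring, quantile normalization, low values, fold minimum and kind of probe set. Figures were drawn with matplotlib 3.10.9.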

Additional observations from a re-analysis of the deposited data

How the results depend on the processing

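Over 8 alternatives that kept all arrays, the log2 difference of RR6 lay between 1.48 and 1.499 and that of CKX4 between 0.74 and 0.78. Of these 8, only centring and quantile normalization could move the differences. They gave 1.49 and 1.48 for RR6 and 0.77 and 0.74 for CKX4. The others leave the group means of both probe sets as they are, so their equal values are no check. When 1 array was left out, the difference lay between 1.26 and 1.74 for RR6 and between 0.64 and 0.91 for CKX4. Replicate numbers were not stated to pair samples. Deviations of same-numbered arrays from their group means correlated at 0.67 across probe sets. With 1 array of each number in each group, the replicate block cannot change the differences of 1.499 and 0.78. With the block their SEs were 0.15 and 0.18, and limma again called 0 probe sets. When the block was combined with a robust, trended prior it called 24. Of all probe sets, 225 were higher and 19 lower by a fold of at least 2 with no overlap. These counts were 699 and 134 at a fold of at least 1.5, and 49 and 0 at a fold of at least 3. Leaving out 1 array leaves 1 array in a group and so makes an overlap rarer. At a fold of at least 2 it gave 312 to 766 higher and 57 to 421 lower. With no fold minimum it gave 10240 to 20935 of 57258 probe sets higher and 11483 to 20437 lower. By that same count, 3 to 4 of 6 type-A regulators were higher and 1 lower, and 2 to 4 of 5 oxidases higher and 0 to 1 lower. Of all 33 cytokinin genes, 10 to 21 were higher and 1 to 12 lower. These counts include RR6 and CKX4, which this contrast chose and which were higher each time. Nothing is read from them for the families. Without the dimmer 50% of probe sets 1 oxidase was higher, CKX4, since CKX3 was no longer tested. In that setting 2894 of all 28629 probe sets were higher. For all cytokinin genes, 1 was lower after centring on each array's median, LOGL1, and 1 when every probe set was counted, the dim second probe set of LOG. Of all 57258 probe sets, 5738 were lower after centring and 4704 (8.22%) without it. Before centring LOGL1 overlapped, at 584.8 and 619.7 without nitrogen and 514.4 and 623.7 with glutamine. The medians of these arrays were 19.9 and 21.7, and 19.7 and 22.2. Precision is limited by 2 arrays a group, and dim probe sets such as CKX3 have no detection call.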

Other observations

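The genes that lie next to RR6 and CKX4 on their chromosomes, in the gene order of the RefSeq table, were looked up after the data had been seen. Of the 5 protein-coding genes on each side of RR6, 7 were measured, with log2 differences from -0.29 to 0.71 and a median of 0.15; 3 were higher on both glutamine arrays than on either minus N array and 1 was lower on both. The highest of them, LOC4337367, stood at 26.5 and 25.6 without nitrogen and 47.0 and 38.8 with glutamine. The gene just before RR6, LOC4337371, stood at 198.6 and 192.9 without nitrogen and 176.6 and 197.0 with glutamine. Around CKX4, 8 of 10 neighbours were measured, with log2 differences from -0.35 to 0.34 and a median of -0.02; 0 had both glutamine arrays higher and 1 had both lower. Over all probe sets these shares were 8.36% higher and 8.22% lower. The lower neighbour of CKX4 was the hexokinase gene HXK3, at 12.1 and 9.8 without nitrogen and 8.7 and 8.4 with glutamine, below the array medians.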
